A study of Mus musculus with 12 samples.

Results

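Neurotrophic factors are secreted proteins that keep neurons alive and guide the growth of their axons, and Schwann cells, the glia of peripheral nerves, are a known source of several of them. The 9 genes described here, of 25700 in the deposited table, were the rows whose mouse Ensembl identifiers belong to Cntf, Gdnf, Bdnf, Ntf3, Ntf5, Lif, Clcf1, Artn and Nrtn. They were measured by bulk RNA sequencing (RNA-seq) in 12 libraries of Schwann cells from sciatic nerves of C57bl/6J mice at postnatal day 5. All mice were P0Cre -/+: ReYFP Tg/+: βAct-DsRed Tg/+. The P0Cre transgene switched on eYFP in the Schwann cell lineage, and DsRed under a β-actin promoter was to mark every cell.

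The eYFP-positive cells were sorted through 3 gates, with 4 libraries per gate. The labels give the libraries of each gate the subject numbers 1 to 4, taken here as 4 mice. The allSC gate took all eYFP-positive cells, the mSC gate those of high side scatter, assumed to be myelinating, and the nmSC gate those of low side scatter, assumed to be not-myelinating. The gates were set on granularity and not on a gene, and the mice carried no treatment. Libraries held 8180927 to 16918122 counts. The summed level of the Schwann cell markers Sox10, S100b and Mbp, in CPM, which are counts per 1e6 of a library's total after scaling by TMM factors, was 25525 to 29785 in allSC, 49827 to 57514 in mSC and 5498 to 6620 in nmSC. Nearly all of this sum was Mbp, a myelin gene, at 26780, 52034 and 5658 CPM. The lineage factor Sox10 was at 267 ± 102 CPM in allSC, 267 ± 97.6 in mSC and 266 ± 49.8 in nmSC (SD, n = 4). Markers of other cells were present too. The 5 fibroblast-like markers Pdgfra, Col1a1, Col3a1, Dcn and Lum summed to 6859 to 7314 CPM in allSC, 888 to 2250 in mSC and 9404 to 14271 in nmSC. Mast cell markers were also higher in nmSC (24.2 to 31.1 CPM, against 4.96 to 7.62 in mSC). Endothelial markers went the other way (6.07 to 11.5 against 19.7 to 28.5). Immune, perineurial, neuron, and pericyte and smooth muscle markers overlapped between mSC and nmSC. Those of skeletal muscle and adipocytes were higher in nmSC, at no more than 3.66 CPM. In bulk samples of this kind, fewer cells of a type and less RNA per cell cannot be told apart.

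The 9 factors act through 3 receptor systems. Bdnf, Ntf3 and Ntf5 encode neurotrophins, which bind the Trk receptor tyrosine kinases and the shared receptor p75 (Ngfr). Gdnf, Nrtn and Artn encode ligands of the GDNF family, each of which binds a preferred co-receptor anchored in the membrane (Gfra1, Gfra2 or Gfra3) that then engages the kinase Ret. Cntf, Lif and Clcf1 encode cytokines that signal through gp130 (Il6st) and the LIF receptor (Lifr), with Cntfr as an additional subunit for Cntf and Clcf1. CNTF has no classical signal peptide and is known as a product of Schwann cells that form myelin, while Gdnf, Artn, Bdnf and Lif are known to rise in Schwann cells after nerve injury.

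One of the 9 genes stood far above the rest, and the annotation of that gene overlaps another. Cntf (ENSMUSG00000079415) lies on the minus strand of mouse chromosome 19 at 12763660 to 12765632 (GRCm38), with 2 exons of 1073 bases in all. It sits at the 3′ end of Zfp91 (ENSMUSG00000024695, 12763660 to 12796126, same strand), which encodes a zinc finger ubiquitin ligase. Its transcript Zfp91-203, which spans the whole gene, has 13 exons, and the last 2 of them are exons of Cntf. It is annotated as a substrate of nonsense-mediated decay. Of the 1073 exon bases of Cntf, 847 (78.9%) are also exon bases of Zfp91, and 226 at the 5′ end are not. The sequences below are shown because reads from the shared bases cannot be assigned to 1 of the genes. They are stretches of 30 bases, 5′ to 3′, from the GENCODE M21 transcripts (GRCm38), with the bases that both transcripts hold in capitals.
Cntf-201: tgtttcctgggacagTTGATTTAGGGGATG
Zfp91-203: agtgggacagaacggTTGATTTAGGGGATG

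In Cntf-201 the last 3 capitals are the start codon. In Zfp91-203 the annotated reading frame ends within the same stretch, at the stop codon on bases 7 to 9 of the capitals. From there to the 3′ end the 2 transcripts are identical. The coding part of exon 1 of Cntf, 114 bases on the minus strand of chromosome 19 at 12765281 to 12765394 (GRCm38), is therefore whole in both, and all of it is in capitals.
Cntf-201: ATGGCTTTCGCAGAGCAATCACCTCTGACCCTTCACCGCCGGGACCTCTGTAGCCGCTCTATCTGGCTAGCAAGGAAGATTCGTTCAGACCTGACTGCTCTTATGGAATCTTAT

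Per length, Cntf was the gene of the group with the highest level in every gate, and it was high in mSC, intermediate in allSC and low in nmSC. The mSC libraries held 2109, 1820, 1967 and 2019 counts of Cntf, in the order of the mice. The allSC libraries held 1145, 959, 894 and 682 counts, and the nmSC libraries 33, 17, 43 and 69. No library of a gate overlapped with a library of another gate. Of all tested genes, 34.2% had no overlap between mSC and nmSC in CPM, and this share was not counted for the other comparisons.

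Scaled to CPM, Cntf was at 177 ± 50.7 in mSC, 71.3 ± 8.35 in allSC and 3.10 ± 1.27 in nmSC (SD, n = 4). In mSC, mouse 4 stood apart with 252 CPM, against 143, 158 and 153 in the other mice. Its count of Cntf was similar to those of the others, but its library had the smallest effective size of the gate. The order nmSC, allSC, mSC held in 4 of 4 mice.

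The log2 fold change of Cntf was 5.81 (SE 0.267) between mSC and nmSC, about 56.0-fold, with an adjusted p = 3.71e-12 from the quasi-likelihood test of edgeR. Between mSC and allSC it was 1.31 (SE 0.210, edgeR adjusted p = 0.000181), and between nmSC and allSC -4.50 (SE 0.257, edgeR adjusted p = 4.38e-10). The 3 comparisons share libraries and are not independent. Exact permutation of the libraries, two-sided, gave p = 0.0286 in each, the smallest value that 4 libraries against 4 allow. Of the 18597 genes tested between mSC and nmSC, 20.4% were called higher in mSC and 20.2% higher in nmSC at an adjusted p under 0.05. Scaled by total counts alone, 12.2% of all calls were higher in mSC, against 50.3% with TMM factors, and the log2 fold change of Cntf was 5.24.

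By size of change, Cntf came first. Among the 9414 genes with a mean of at least 10 CPM over mSC and nmSC, its log2 fold change was the largest toward mSC, followed by Cav1 (caveolin 1) at 5.78, Fam107a at 5.61 and Drp2, a dystrophin-related protein of the myelin sheath's outer surface, at 5.58. The distance to the next genes was smaller than the SE of Cntf. It was also first in 19 of 22 alternatives, and it came in place 4 without mSC library 4, in place 2 without nmSC library 1 and in place 3 without nmSC library 2. These places are a description, because the gene was chosen with earlier results known.

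Set against Mbp, which encodes myelin basic protein, Cntf was the more uneven between the gates. Its nmSC level was 1.75% of its mSC level, while that of Mbp was 10.9%. Within mice the value was 2.21%, 0.915%, 2.10% and 1.81% for Cntf and 10.4%, 10.1%, 13.0% and 10.2% for Mbp, so that Cntf was the lower of the pair in 4 of 4 mice. No test of this difference was made. The allSC level lay 39.3% of the way from nmSC to mSC for Cntf and 45.5% for Mbp, and the 4 mice ranged from 25.9% to 57.3% for Cntf.

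**Figure D1:**
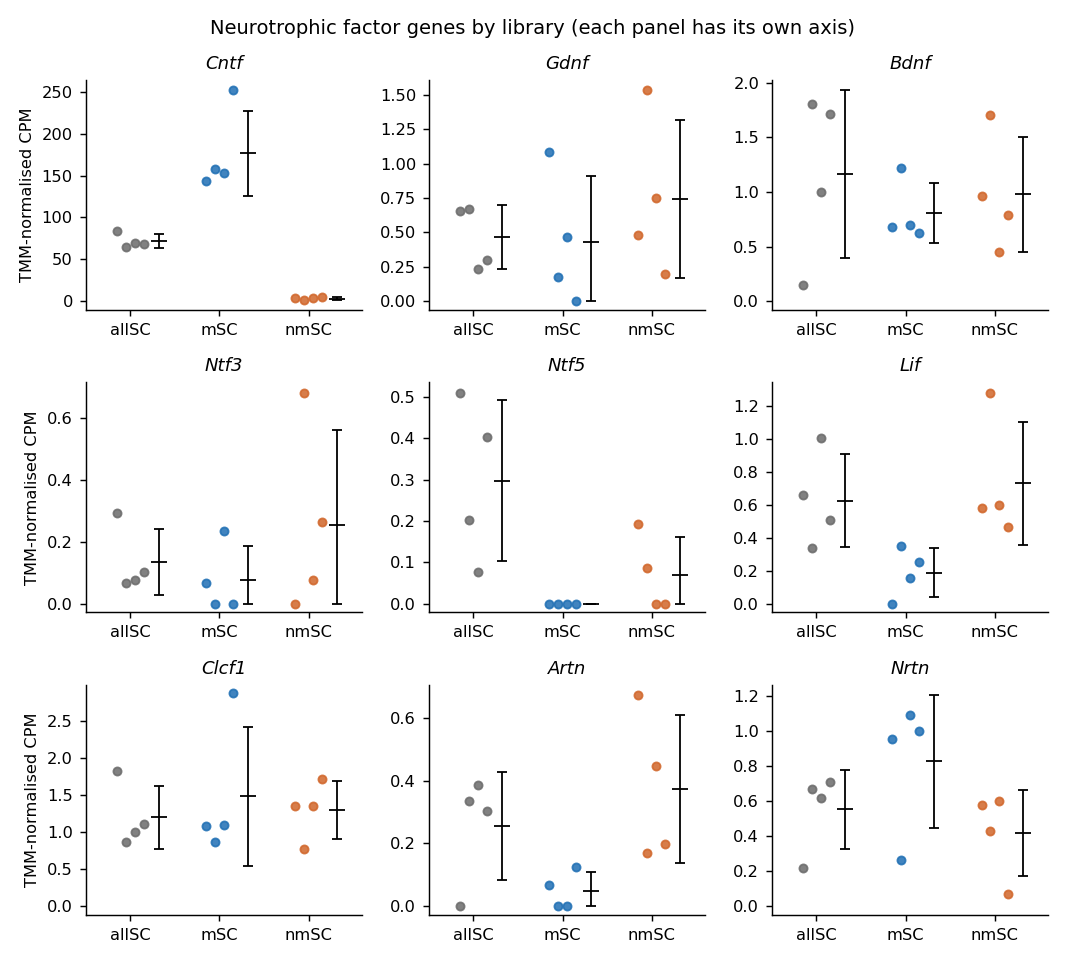
TMM-normalised CPM of the 9 genes in each of the 4 libraries of each gate (points, in the order of the mice), with the mean and SD beside them (bars end at 0 where the SD passes below it), on a separate linear axis for each gene. Cntf reached 143 to 252 CPM in mSC and at most 4.55 in nmSC, whereas the other 8 genes stayed at or below 2.87 CPM in every library.

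Whether the count of Cntf is its own depends on how reads on shared exons were counted, which the sources used here do not state. The table itself answers it in part. Of gene pairs in which the exons of 1 gene lie wholly within exons of another, and whose inner gene had at least 120 counts, the outer gene had at least as many counts in all 12 libraries for 8 of 8 pairs on the same strand and 24 of 24 pairs on opposite strands. The counts of the inner genes on the same strand show that reads on shared exons were not all dropped. Counting reads on exons of 2 genes for both, without regard to strand, would give this order of counts. An outer gene that is longer or more expressed would give it too, so the check cannot establish the rule. If reads were counted for both, a Cntf read on the shared bases was also counted for Zfp91, and the reverse.

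Zfp91 followed Cntf. It had 2692, 2314, 2418 and 2508 counts in the mSC libraries, 1474, 1468, 1345 and 1044 in allSC, and 444, 427, 419 and 586 in nmSC. Cntf amounted to 79.7 ± 1.45% of the Zfp91 counts in mSC, 68.7 ± 6.01% in allSC and 8.36 ± 3.43% in nmSC (SD, n = 4). With the Cntf counts taken off, 451 to 583 counts of Zfp91 remained in mSC, 329 to 509 in allSC and 376 to 517 in nmSC, so that the ranges of the 3 gates overlapped.

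The call of Zfp91 ended with this step, which was chosen after seeing the data. As deposited, Zfp91 had a log2 fold change of 2.57 (SE 0.167, edgeR adjusted p = 3.13e-10) between mSC and nmSC. With the Cntf counts taken off it was 0.38 (SE 0.177, edgeR adjusted p = 0.0897). Between mSC and allSC the value went from 1.09 to 0.46 (edgeR adjusted p = 0.0779), and between nmSC and allSC from -1.48 to 0.08 (edgeR adjusted p = 0.866). Taking off every Cntf count removes too many reads where they fell on the 226 bases of Cntf alone, so the remainder of Zfp91 is a lower value. Cntf counts were highest in mSC, so this error is largest there and draws mSC toward nmSC. The loss of the call therefore cannot show that Zfp91 itself was alike in the gates.

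Per length the 2 genes were far apart in mSC and close in nmSC. In RPKM, here CPM per kilobase of exon, Cntf was at 165 ± 47.2 in mSC against 4.86 ± 1.24 for the remainder of Zfp91 over the 9199 bases it does not share. In allSC the levels were 66.5 ± 7.78 and 3.51 ± 0.615, and in nmSC 2.89 ± 1.19 and 3.71 ± 0.509 (SD, n = 4). In nmSC the ranges overlapped, 1.35 to 4.24 RPKM for Cntf and 3.06 to 4.30 for Zfp91. How many of the 17 to 69 counts of Cntf per nmSC library came from Zfp91-203 cannot be told apart in these counts.

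**Figure D2:**
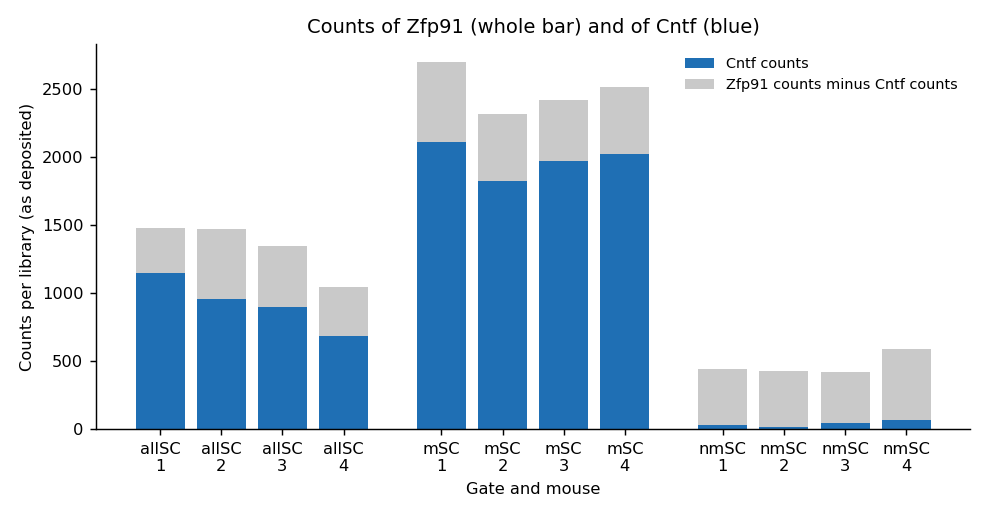
Deposited counts of Zfp91 in each library (whole bar), split into a part equal to the count of Cntf (blue) and the remainder (grey), by gate and mouse, on a linear axis from 0. The blue part runs from 17 counts in an nmSC library to 2109 in an mSC library, while the grey part stays between 329 and 583 counts.

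The other 8 genes were near the limit of detection. Their summed level was 1.61 ± 0.166 RPKM in allSC, 1.55 ± 0.506 in mSC and 1.60 ± 0.438 in nmSC (SD, n = 4). Cntf made up 99.0% of the summed RPKM of all 9 genes in mSC, 97.6% in allSC and 62.1 ± 17.1% in nmSC. A count of 3, taken as the floor for counting error alone, was worth 0.198 to 0.375 CPM in these libraries. Only Cntf, Bdnf and Clcf1 passed the expression filter of edgeR, and Gdnf, Ntf3, Ntf5, Lif, Artn and Nrtn did not. Of the 3 tested genes, 1 was called in each comparison, always Cntf. The share of all tested genes called between mSC and allSC was 8.76% higher in mSC and 8.8% higher in allSC, and between nmSC and allSC it was 2.83% higher in nmSC and 7.54% higher in allSC.

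To show what such low levels look like in these libraries, the 1452 listed genes of olfactory and vomeronasal receptors, which are used mainly by sensory cells of the nose, were measured the same way. Their pooled density was 0.293 ± 0.0264 RPKM in allSC, 0.208 ± 0.0192 in mSC and 0.334 ± 0.0664 in nmSC (SD, n = 4), lowest in mSC. Cntf was above the 95th percentile of these genes in all gates. Nrtn was above it in mSC, at 0.806 RPKM, higher than 99.5% of them. The mean RPKM of Gdnf, Bdnf, Ntf3, Ntf5, Lif, Clcf1 and Artn stayed below the 95th percentile in every gate. For Clcf1 this depends on the length used. Divided by its mean transcript length, it was at 0.723 in allSC, 0.891 in mSC and 0.779 in nmSC. The percentiles, which rest on exon bases, were 0.664, 0.514 and 0.741.

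**Figure D3:**
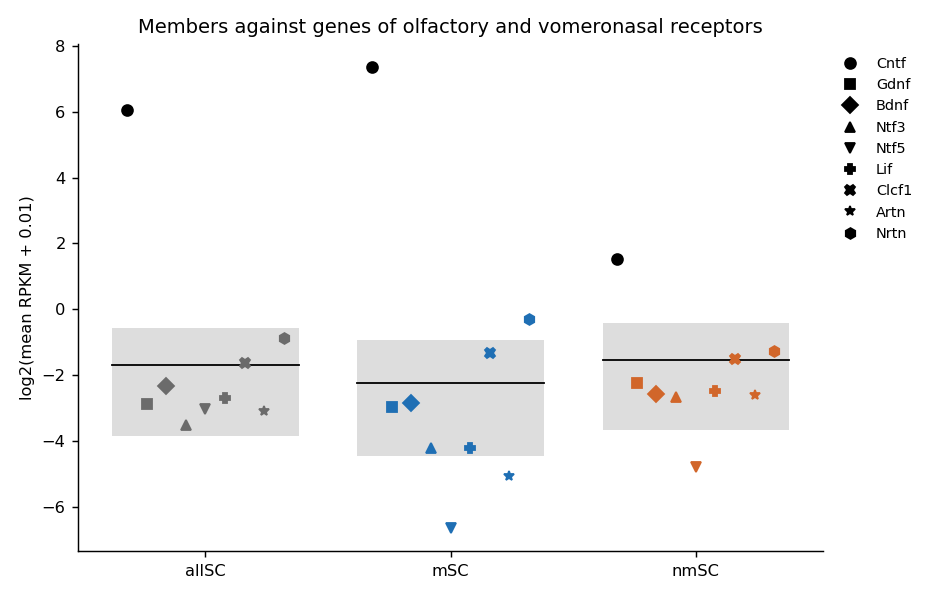
Mean RPKM of each of the 9 genes per gate on a log2 scale after adding 0.01 (symbols), with the 5th to 95th percentile (grey) and median (line) of 1452 olfactory and vomeronasal receptor genes. Cntf lies above the grey range in all 3 gates and Nrtn in mSC alone, while Ntf5 in mSC is at 0 counts and sits at the bottom of the axis.

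Among the neurotrophins, Bdnf, which supports sensory and motor neurons, had 2, 27, 13 and 17 counts in allSC, 10, 14, 9 and 5 in mSC and 10, 20, 6 and 12 in nmSC. The gates overlapped throughout, and mSC differed from nmSC by a log2 fold change of -0.26 (SE 0.580, edgeR adjusted p = 0.742). Its 95% interval, from -1.39 to 0.88, leaves room for a change of more than 2-fold. Bdnf (chromosome 2, 109674700 to 109727007, plus strand) shares 896 of its 6217 exon bases with the antisense gene Gm45346, whose reads could not be told apart from its own.

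Ntf3, the ligand of TrkC, had 4, 1, 1 and 1 counts in allSC, 1, 0, 3 and 0 in mSC and 0, 8, 1 and 4 in nmSC. Only 3 of the 12 libraries held more than 3 counts of it, so no difference was detectable at this depth. Ntf5, the second ligand of TrkB, had 7, 3, 1 and 4 counts in allSC, 2, 1, 0 and 0 in nmSC and 0 in each of the mSC libraries. A count of 0 allows up to 3 counts per library, so its presence in mSC was not detectable at this depth.

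Without the expression filter, edgeR called Ntf5 between mSC and allSC (adjusted p = 0.0308), where 6.35% of the 25196 genes were called higher in mSC and 6.02% higher in allSC. Its libraries of these gates did not overlap, and the share of all genes without overlap between these gates was not counted. This call rests on 15 counts in all.

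Of the GDNF family, Gdnf, the founding ligand that acts on motor neurons, had 9, 10, 3 and 3 counts in allSC, 16, 2, 6 and 0 in mSC and 5, 18, 10 and 3 in nmSC. The libraries of mSC and of nmSC spread over most of this range, and the gates overlapped. Nrtn (neurturin) had 3, 10, 8 and 7 counts in allSC, 14, 3, 14 and 8 in mSC and 6, 5, 8 and 1 in nmSC, and was higher in mSC than in nmSC in 3 of 4 mice. The exact permutation test of Nrtn between mSC and nmSC gave p = 0.143 (two-sided).

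Artn (artemin), a ligand for sensory and sympathetic neurons, had 1, 0, 0 and 1 counts in mSC, 7, 2, 6 and 3 in nmSC and 0, 5, 5 and 3 in allSC. Every nmSC library was above every mSC library in CPM. Lif, a cytokine released by Schwann cells after injury, had the same order, with 0, 4, 2 and 2 counts in mSC, 6, 15, 8 and 7 in nmSC and 9, 5, 13 and 5 in allSC. Both genes gave an exact permutation p = 0.0286 between mSC and nmSC, the smallest possible, among 27 such tests made. Of the 6599 genes below the filter with at least 1 count, 7.35% had every nmSC library above every mSC library, and of the genes past the filter 34.2% had no overlap in either direction.

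Lif was called or not depending on the filter and the tool, and Artn was called in no fit. Without the filter, Lif had a log2 fold change of -1.94 (SE 0.715, edgeR adjusted p = 0.0428) in mSC against nmSC, and Artn one of -2.79 (SE 1.06, edgeR adjusted p = 0.0504). The share of genes called in that fit was 15.4% higher in mSC and 13.9% higher in nmSC. The Wald test of DESeq2 also called Lif (adjusted p = 0.0338), in a fit that called 20.4% of genes higher in mSC and 15.9% higher in nmSC. It gave no adjusted p for Artn. The density on the olfactory and vomeronasal receptor genes differed in the same direction, 0.208 RPKM in mSC and 0.334 in nmSC, as did the fibroblast-like markers, and the part of either in the values of Lif and Artn was not tested.

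Clcf1 (chromosome 19, 4214238 to 4223490, plus strand), a cytokine that binds the CNTF receptor, had 25, 13, 13 and 11 counts in allSC, 16, 10, 14 and 23 in mSC and 14, 9, 18 and 26 in nmSC. The gates overlapped. For mSC against nmSC its log2 fold change was 0.13 (SE 0.433, edgeR adjusted p = 0.827), with a 95% interval from -0.72 to 0.98, and the sign turned to -0.44 when libraries were scaled by total counts alone. It shares 311 of 3806 exon bases with a gene that is not in the table, AC109138.7 on the same strand. The level per length was 0.315 RPKM in allSC, 0.389 in mSC and 0.340 in nmSC.

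Most of the receptor genes had higher CPM than the ligands other than Cntf, and most differed between mSC and nmSC. Per kilobase of exon, Ntrk3 (0.295 RPKM) and Gfra3 (0.446) lay in mSC below the 95th percentile of the olfactory and vomeronasal receptor genes (0.514). Ret and Cntfr lay below that percentile in mSC and in nmSC. For Ntrk3 in mSC and Cntfr in nmSC this depends on the length used. Divided by mean transcript length, Ntrk3 was at 3.71 in mSC, and Cntfr at 1.17 in nmSC, where the percentile was 0.741. Of 12 receptor genes examined, 12 passed the filter, 2 were higher in mSC, 7 were higher in nmSC and 3 were not called, beside 20.4% and 20.2% of all tested genes. The 2 higher in mSC were Gfra1 and Gfra4, and Gfra4 is not among the preferred co-receptors named above. In the neurotrophin system, Ntrk3 (TrkC) was at 8.90 ± 1.51 CPM in mSC and 72.2 ± 5.77 in nmSC (SD, n = 4), a log2 fold change of -3.02 (SE 0.152, edgeR adjusted p = 9.43e-12). Ntrk2 (TrkB) had 16.8, 13.8, 18.4 and 13.0 CPM in mSC and 58.0, 64.8, 71.5 and 71.6 in nmSC, a log2 fold change of -2.09 (SE 0.143, edgeR adjusted p = 6.08e-10). Ngfr (p75), a marker of immature and not-myelinating Schwann cells, was at 41.7 ± 13.0 CPM in mSC and 256 ± 48.4 in nmSC, and its log2 fold change was -2.61 (SE 0.199, edgeR adjusted p = 2.89e-09). All 3 were higher in nmSC in each mouse, with allSC between the other gates.

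The co-receptors of the GDNF family parted. Gfra1, the receptor preferred by GDNF, was higher in mSC, at 176, 153, 158 and 114 CPM against 33.8, 27.6, 41.1 and 44.7 in nmSC, a log2 fold change of 2.03 (SE 0.168, edgeR adjusted p = 9.35e-09). Gfra2, which prefers neurturin, had 2.79, 2.87, 3.50 and 2.75 CPM in mSC and 46.0, 54.4, 77.3 and 68.3 in nmSC, a log2 fold change of -4.36 (SE 0.201, edgeR adjusted p = 3.73e-12). Gfra3, the receptor of artemin, was at 0.890 ± 0.190 and 9.92 ± 2.35 CPM, a log2 fold change of -3.44 (SE 0.253, edgeR adjusted p = 1.72e-09). For these 3 genes the allSC library lay between the others in 4 of 4 mice.

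The shared kinase Ret was low, at 0.793 ± 0.272 CPM in mSC and 1.54 ± 0.563 in nmSC, and was not called (log2 fold change -0.94, SE 0.405, edgeR adjusted p = 0.0728). Gfra4 was called higher in mSC (log2 fold change 0.76, SE 0.254, edgeR adjusted p = 0.0233), but kept its call in 16 of 21 alternatives only. Ncam1, a cell adhesion molecule that can also bind GDNF with Gfra1, was at 48.9 ± 9.04 CPM in mSC and 553 ± 69.8 in nmSC (log2 fold change -3.50, SE 0.147, edgeR adjusted p = 1.30e-12).

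Of the receptor subunits for Cntf, Lif and Clcf1, Lifr and Il6st were well expressed, while Cntfr, which Lif does not use, was low. Lifr was at 71.2 ± 16.0 CPM in mSC and 74.8 ± 8.52 in nmSC and was not called (log2 fold change -0.07, SE 0.148, edgeR adjusted p = 0.726). The value ran from -0.62 to 0.05 over the 21 alternatives and kept its sign in 18 of them. It was called higher in nmSC with totals alone (-0.62) and with totals that leave out the 50 genes with the most counts, as was Ret, and Sort1 with totals alone (-0.39). Il6st (gp130), the signal-transducing subunit, was at 69.8 ± 24.3 CPM in mSC and 136 ± 24.2 in nmSC (log2 fold change -0.96, SE 0.213, edgeR adjusted p = 0.00141). Cntfr had 1, 1, 6 and 2 counts in mSC, 22, 9, 12 and 17 in nmSC and 3, 9, 11 and 9 in allSC. The log2 fold change of Cntfr was -2.45 (SE 0.626, edgeR adjusted p = 0.00433). Cntfr was not called in mSC against allSC (edgeR adjusted p = 0.120). Its level of 0.0783 RPKM in mSC, 0.231 in allSC and 0.440 in nmSC was below the olfactory and vomeronasal 95th percentile of each gate. Divided by its mean transcript length, Cntfr was at 0.207, 0.613 and 1.17, in nmSC above the percentile of these genes (0.741). The density on those genes was also lower in mSC (0.208 RPKM) than in nmSC (0.334). Its part in the values of Cntfr was not tested.

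**Figure D4:**
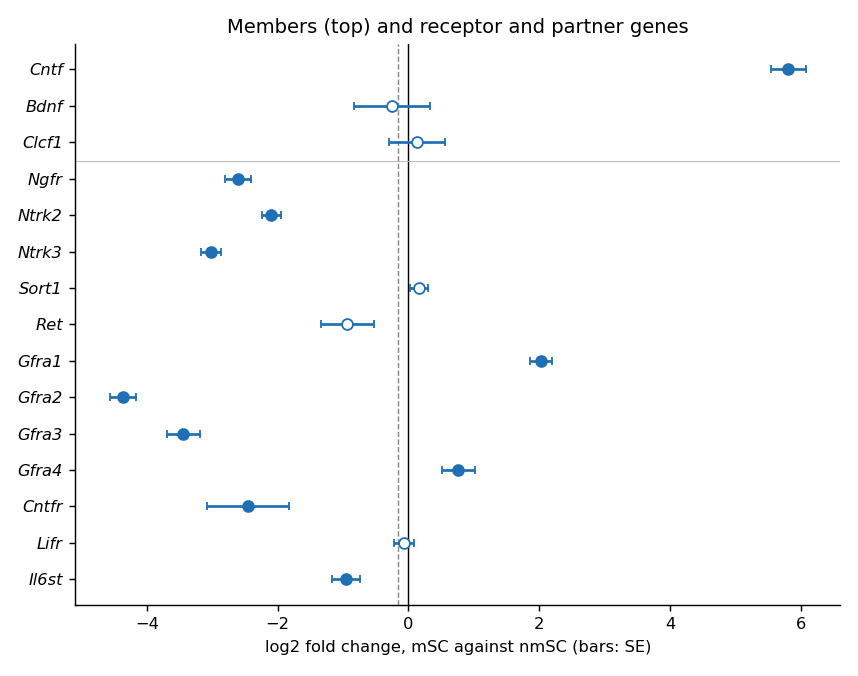
Log2 fold changes between mSC and nmSC with their SE for the 3 tested genes of the group and for 12 receptor genes, with filled points for an adjusted p under 0.05 and open points for the rest. The dashed line is the median of all 18597 tested genes (-0.16), and Cntf lies at 5.81 while Gfra2 lies at -4.36.

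**Figure D5:**
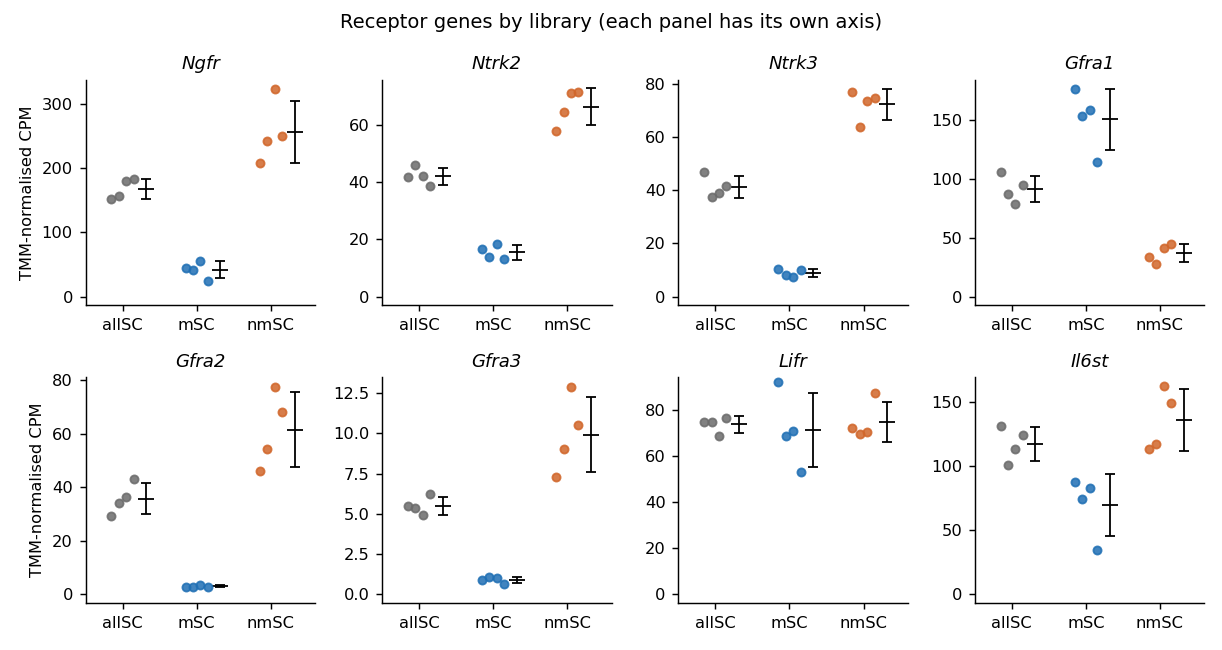
TMM-normalised CPM of 8 receptor genes in each of the 4 libraries of each gate (points, in the order of the mice), with mean and SD, on a separate linear axis for each gene. Ngfr, Ntrk2, Ntrk3, Gfra2, Gfra3 and Il6st are higher in every nmSC library than in any mSC library, Gfra1 is lower in every one, and the libraries of Lifr overlap. Of all tested genes, 34.2% had no overlap between mSC and nmSC.

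Over the wider lists, the neurotrophin ligands and receptors had 1 gene higher in mSC, 5 higher in nmSC and 4 not called of 10 tested, with a median log2 fold change of -0.77, against -0.16 over all tested genes, of which 20.4% were higher in mSC and 20.2% higher in nmSC. Scaled by total counts alone, 1 was higher in mSC, 8 were higher in nmSC and 1 was not called. That scaling called 11840 of the 18597 tested genes, 12.2% of them higher in mSC and the others higher in nmSC. Beside the genes already named, Sorcs1, a sortilin-related sorting receptor, was higher in mSC (310 ± 92.4 against 125 ± 18.3 CPM, log2 fold change 1.31, edgeR adjusted p = 1.07e-05). Its relative Sorcs2, which can pair with p75, was higher in nmSC (7.28 ± 1.77 against 82.3 ± 10.3 CPM, log2 fold change -3.48, edgeR adjusted p = 9.08e-12). Sort1, the sortilin receptor of pro-neurotrophins, was at 110 ± 18.4 and 98.8 ± 10.9 CPM and was not called. Of the GDNF list, 2 genes were higher in mSC, 3 higher in nmSC and 3 not called of 8 tested (median -0.77), or 1, 4 and 3 when scaled by total counts alone. The list of the CNTF and LIF family had 3 higher in mSC, 3 higher in nmSC and 4 not called of 10 tested (median 0.03), or 2, 5 and 3 (median -0.53) when scaled by total counts alone, and its 3 in mSC were Cntf and the receptors of IL-6 and IL-11, Il6ra (log2 fold change 2.69) and Il11ra1 (0.92, or 0.34 and not called when scaled by total counts alone). Sorcs3 (-0.82) and Osmr (-1.32), the oncostatin M receptor, complete the calls toward nmSC of the neurotrophin list and of the CNTF and LIF list. Sorcs3 was not called with the size factors of DESeq2 (adjusted p = 0.0640 in edgeR) or with TMMwsp factors. Both are under 5 CPM and are named for completeness, after their values were seen.

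Other trophic factors went both ways and ranged from levels as low as those of the 8 genes (Epo, Shh and Vegfa did not pass the filter) to 216 CPM for Fgf1 and 264 for Grn in allSC. Of 24 tested, 6 were higher in mSC, 8 higher in nmSC and 10 not called, with a median log2 fold change of -0.25, beside 20.4% and 20.2% of all tested genes. Scaled by total counts alone, 4 were higher in mSC, 15 higher in nmSC and 5 not called. Beside these, 11840 of all 18597 tested genes were called, 12.2% of them higher in mSC and the others higher in nmSC. Toward mSC the largest changes were those of Tgfa, a ligand of the EGF receptor (66.8 ± 27.6 CPM in mSC against 5.43 ± 1.31 in nmSC, log2 fold change 3.61, edgeR adjusted p = 5.49e-09), and of the growth factor Fgf7 (89.2 ± 2.52 against 8.01 ± 1.27 CPM, log2 fold change 3.47, edgeR adjusted p = 1.36e-12). Fgf1 (2.05), Gas6 (1.66), Pdgfa (0.75) and Grn (0.41) followed, of which Pdgfa lost its call and Grn turned to -0.15 when scaled by total counts alone. Toward nmSC, among genes with a mean of at least 5 CPM, they were those of pleiotrophin, Ptn (163 ± 19.5 CPM in nmSC, log2 fold change -3.90, edgeR adjusted p = 8.27e-12), and of midkine, Mdk (2.37 ± 1.48 against 13.9 ± 3.64 CPM, log2 fold change -2.62, edgeR adjusted p = 1.43e-05), 2 related heparin-binding proteins that promote the growth of neurites. Fgf2 (-0.64) and Hbegf (-0.54) followed. The other 4 toward nmSC, Pdgfb, Tgfb1, Vegfc and Nrg1, were under 5 CPM.

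The proteases that process pro-neurotrophins had 1 gene higher in mSC (Pcsk6, 0.99, under 5 CPM and named after its value was seen), 2 higher in nmSC and 7 not called of 10 tested (median -0.55), shares at or below the 20.4% and 20.2% of all tested genes. Scaled by total counts alone, 0 were higher in mSC, 6 higher in nmSC and 4 not called. Beside these, 11840 of all 18597 tested genes were called, 12.2% of them higher in mSC and the others higher in nmSC. Mmp2 (-1.59) and the tissue plasminogen activator Plat (-1.01) were higher in nmSC, and Furin was at 11.2 ± 1.53 CPM in mSC and 10.1 ± 1.10 in nmSC without a call. Of the genes for JAK and STAT signalling below gp130, 3 were higher in mSC (Jak2, 0.77, Socs2, 0.71, and Ptpn11, 0.61), 1 higher in nmSC (Cish, -0.57) and 8 not called (median 0.04). Scaled by total counts alone, the 3 calls toward mSC were lost, 7 genes of the list were higher in nmSC and the median was -0.51. The median over all genes was -0.73, and most of the 11840 calls with that scaling were higher in nmSC, with 12.2% higher in mSC. Cish was not called with the size factors of DESeq2 (adjusted p = 0.0544 in edgeR). Stat3, the main carrier of the CNTF signal, was at 94.0 ± 17.3 CPM in mSC and 84.4 ± 9.05 in nmSC, and its inhibitor Socs3 at 266 ± 106 and 355 ± 51.7. Neither of these was called.

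Of 15 genes that mark the repair Schwann cell, the state Schwann cells take on after nerve injury, 10 were tested, 5 were higher in nmSC and 5 were not called (median -0.59). The 5 higher in nmSC, beside 20.2% of all tested genes, were Cxcl10 (-2.46), Ngfr, Jun (-1.31), Atf3 (-1.12) and Sox2 (-0.93). Bdnf, Runx2, Gap43, Stat3 and Clcf1 were not called, and Gdnf, Artn, Shh, Olig1 and Lif did not pass the filter. The mice carried no treatment, and Ngfr also marks immature Schwann cells, so these calls do not show a repair state. Of the 18 genes of dissociation and the immediate early response, 1 (Btg2, 0.98) was higher in mSC, 6 were higher in nmSC, with Ier2 (-2.52) and Egr1 (-1.94) furthest, and 11 were not called (median -0.20), beside 20.4% and 20.2% of all tested genes. Scaled by total counts alone, 12 of the 18 were higher in nmSC, and of the repair list 6 of the 10. Beside these, 11840 of all 18597 tested genes were called, 12.2% of them higher in mSC and the others higher in nmSC. Jun and Atf3 are in both lists. The cells were sorted after mechanical and enzymatic dissociation of the nerves, and the part of that step in the values of these 2 lists was not tested.

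The 3 genes whose log2(CPM + 1) followed Cntf most closely over the 12 libraries were Serpinb6b (r = 0.998), a protease inhibitor, Ogn (r = 0.996), an osteoglycin of the extracellular matrix, and Pmp22 (r = 0.995), a protein of compact myelin. These values are across libraries that share mice and gates, and they mostly measure the separation of the gates. Pmp22 was at 6439 CPM in nmSC and 78429 in mSC, a smaller difference than that of Cntf. For Bdnf the closest were Mdfic, Prkar2b and Vmn1r213 (r = 0.803 to 0.830), and for Clcf1 Xpa, Bbx and Cog8 (r = 0.880 to 0.892), at counts too low for such values to be a finding.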

How the data were processed

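Sciatic nerve cells of 4 subjects were sorted into 3 gates, and each of the 12 libraries was made by Smart-seq2 from poly(A) RNA and sequenced as single-end reads. According to the methods, reads were trimmed, mapped by STAR and assigned to genes by featureCounts of Rsubread. The methods name a human build, whereas the labels give GRCm38.p5 and the gene identifiers are from mouse. The deposited values are raw counts per gene, and samples were mapped to gates by their labels.

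Of 25700 genes, 25664 matched GENCODE M21 (GRCm38), which gave symbols, exons and transcript sequences. The 9 genes and all lists were chosen with earlier results of these data known. Genes past filterByExpr (18597) were fitted over all 12 libraries without a block by the quasi-likelihood test of edgeR 4.0.16 with TMM factors (limma 3.58.1, R 4.3.3), adjusted by Benjamini-Hochberg over all tested genes and called under 0.05. The TMM factors were 0.986 to 1.03 in allSC, 0.744 to 0.871 in mSC and 1.16 to 1.28 in nmSC. CPM uses the TMM-scaled totals, and RPKM divides CPM by the exon bases of the gene. Single genes were also compared by exact two-sided permutation on log2(CPM + 1) with scipy 1.17.1. DESeq2 1.42.0 served as an alternative. Genes named from lists were called between mSC and nmSC with a mean of at least 5 CPM, apart from those said to be named otherwise, and the genes most like a member were the 3 of highest r. Some genes of the lists are not reported here and were left out of the lists' counts. The scripts were tested on simulated data.

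The labels give libraries of the same number the same subject, and the methods say that a sample came from 1 mouse, so that the numbers were taken to pair the libraries. The deviations of same-numbered libraries from their gate means had a mean r of -0.0355 between mSC and nmSC (-0.225 to 0.153), so the values themselves show no pairing there, and the fit with the replicate block gave 5.83 for Cntf. Between mSC and allSC the mean r was 0.114 (0.0391 to 0.246), against -0.0383 for libraries of different numbers. The paper took both sexes in each gate and reports that samples paired by sex, which the labels do not give. Floors cover counting error only.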

Additional observations from a re-analysis of the deposited data

Results flagged for a closer look

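In 10 of 65 groups of 4 libraries examined, 1 library lay far from the other 3 by Dixon's criterion, which flags about 1 group in 20 by chance. Cntf was highest in mSC library 4 (252 CPM), and so was Zfp91 (313 CPM), whose counts may include those of Cntf, as was Clcf1 (2.87 CPM, 23 counts). Without this library the log2 fold change of Cntf between mSC and nmSC was 5.59.

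Among the low genes, Bdnf was highest in mSC library 2 (1.22 CPM, 14 counts), Ntf3 in allSC library 1 (0.291 CPM, 4 counts) and Lif in nmSC library 2 (1.28 CPM, 15 counts). Nrtn was lowest in mSC library 2 (0.261 CPM, 3 counts). Among the receptors, Ret was highest in nmSC library 2 (2.38 CPM, 28 counts), Gfra2 in mSC library 3 (3.50 CPM, 45 counts) and Lifr in nmSC library 4 (87.5 CPM, 1326 counts).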

How the results depend on the processing

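Cntf kept its direction and its call in every comparison under all alternatives run. Its log2 fold change between mSC and nmSC ran from 5.58 to 6.08 when a library was left out and from 5.24 to 5.90 otherwise. With the replicate block, 7173 genes were called between mSC and nmSC (7540 without it) and the value for Cntf was 5.83.

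The scaling mattered most. The median log2 fold change of all genes between mSC and nmSC was -0.16 with TMM factors, -0.10 with the size factors of DESeq2, -0.53 with totals that leave out the 50 genes with the most counts, and -0.73 with totals alone. With totals alone 11840 genes were called between mSC and nmSC (12.2% of them higher in mSC) and 2938 between nmSC and allSC (74.7% higher in nmSC, against 27.3% of 1928). Fitting these 2 gates only gave 2899 calls, 39.6% higher in nmSC. Between mSC and allSC, 9.52% of 4378 calls were higher in mSC, against 49.9% of 3266. With totals alone the log2 fold change of Clcf1 turned to -0.44 between mSC and nmSC and to -0.078 between mSC and allSC, and that of Bdnf between nmSC and allSC to 0.0074. Without the 50 top genes Clcf1 between mSC and nmSC was -0.23. None of these was called.

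Of the 9 genes, 2 were called between mSC and nmSC without the filter and with DESeq2 (Cntf and Lif, against 1), and 2 between mSC and allSC without the filter (Cntf and Ntf5). Taking the Cntf counts off Zfp91, which was chosen after seeing the data, turned Zfp91 between nmSC and allSC to 0.080. When a library was left out, Bdnf ranged from -0.50 to 0.15 (without nmSC library 2) between mSC and nmSC and from -0.66 to 0.061 between nmSC and allSC. Clcf1 ranged from -0.35 (without mSC library 4) to 0.33 between mSC and nmSC, from -0.21 to 0.53 between mSC and allSC and from -0.063 to 0.39 between nmSC and allSC. At 3 counts per library, depth limits what can be said of Gdnf, Ntf3, Ntf5, Lif, Artn and Nrtn.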
